A study of Mus musculus with 8 samples.

Results

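The organic ion and ABC transporter genes of the liver were compared between Nnmt KO mice and control mice. Genes were taken by symbol from the count table, as all Slc22a and Slco genes and all ABC genes of the subfamilies A, B, C and G other than Abcb11, without pseudogenes. Of 33212 genes in the table, 82 had such a symbol, and the 54 with a mean of at least 0.5 CPM (counts scaled to the size of the library) over the 8 libraries were kept. They comprise 16 Slc22a genes, 6 Slco genes and 32 ABC genes, the last made up of 10 Abca, 8 Abcb, 9 Abcc and 5 Abcg genes. The limit fell between Abca4, with a mean of 0.57 CPM before normalisation, and Slco4a1, with 0.398 CPM. The other 28 genes included Slc22a6 and Slc22a8, the organic anion transporters of the kidney, with 12 and 112 counts in all 8 libraries together.

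Bulk liver RNA was sequenced from 4 Nnmt KO and 4 control male mice. For 8 weeks all of them ate MCD diet, a food without methionine or choline. The Nnmt KO mice carried Alb-Cre together with floxed Nnmt alleles (Alb-Cre::Nnmt flox/flox), so that deletion was directed to hepatocytes, in which the albumin promoter drives Cre. The control mice carried the floxed Nnmt alleles (Nnmt flox/flox) according to the paper, while the sample labels give their genotype as WT. The labels give C57BL/6 as the strain of both groups and Nnmt LKO as the genotype of the first. No group on a normal diet belongs to this comparison, and the age of these mice is not stated in the sources used here. Nnmt encodes the enzyme that methylates nicotinamide.

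Cells take up and export organic molecules through these families. SLC22 proteins carry organic cations, zwitterions such as carnitine, and organic anions such as urate. SLCO proteins, also called OATPs, take up bile salts, hormone conjugates and drugs from blood, and ABC proteins use ATP to export substrates into bile or blood or to move lipids across membranes. In hepatocytes, uptake carriers lie on the membrane facing the blood, and several ABC exporters lie on the membrane facing the bile canaliculus.

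The letters a to d name the libraries within a genotype and pair nothing between genotypes. Total counts were between 75020072 and 87934362 per library, and 3 counts stood for at most 0.04 CPM. Nnmt itself was at 31.8, 44.8, 68.9 and 83 CPM in Nnmt KO libraries a to d, and at 112, 224, 134 and 84.9 CPM in control libraries a to d. Its log2 fold change was -1.28 (SE 0.33), and edgeR's quasi-likelihood test gave an adjusted p of 0.123 (0.00256 before adjustment). Hepatocyte markers had summed levels of 62830 to 112100 CPM in Nnmt KO and 74140 to 113000 CPM in control libraries. Of the 8 kidney tubule markers, 0 had enough counts for the test, and their highest level in any library was 0.33 CPM. Nnmt KO library a and control library d had the highest summed macrophage markers of their genotype, at 993 and 908 CPM, where the other libraries lay between 409.5 and 607 CPM. In bulk liver, fewer cells of a type and less RNA per cell cannot be told apart.

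Few transporter genes differed beyond the spread between mice. Over all 15291 tested genes, 0.320% passed an adjusted p of 0.05 by edgeR's test, and 1 of the 54 transporter genes did: Slc22a12, the urate transporter gene. By DESeq2's Wald test, which called 3.32% of all genes, 6 did: Slc22a12, Slc22a5, Slc22a21, Slc22a3, Abcc9 and Abcc12. At an unadjusted p under 0.05, 12 transporter genes were above control and 2 below it, against 5.45% of all tested genes higher and 7.13% lower. As all 54 genes had a mean of at least 0.5 CPM, the share of all genes above that mean with such a p, in either direction, is the closer background, at 13.8%, beside 25.9% of the transporter genes. Of the log2 fold changes, 35 were above 0 and 19 below, with a median of 0.07, where the median over all tested genes was 0.02. All 4 Nnmt KO libraries lay above all 4 control libraries for 6 transporter genes, against 3.34% of all tested genes, and below them for 1, against 4.81%. With DESeq2's size factors, these counts were 7 and 0.

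**Figure D1:**
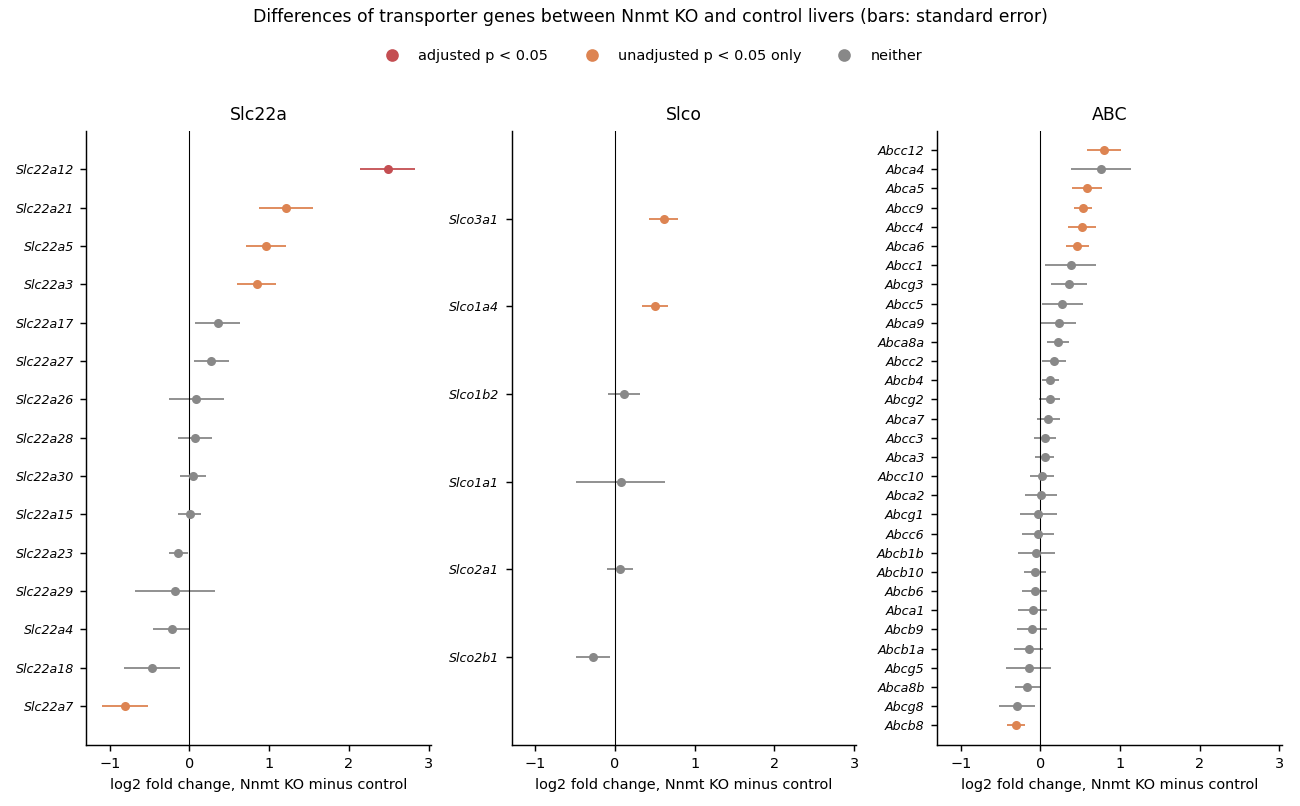
Log2 fold changes (Nnmt KO minus control, horizontal axis) of 52 of the transporter genes with their standard errors, in 1 panel per family and ordered by value. Red marks the single gene with an adjusted p under 0.05 in edgeR's test (Slc22a12, at 2.49), orange 12 others with an unadjusted p under 0.05, and grey the remaining 39, which lie between -0.47 and 0.76.

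The start of Slc22a12 is shown because this gene carried the largest difference and begins inside another gene. Slc22a12 (ENSMUSG00000061742) occupies bases 6535845 to 6543032 of chromosome 19 (minus strand, GRCm38, GENCODE). It sits within Nrxn2, a neurexin gene on the plus strand from 6418731 to 6544169. RefSeq starts the gene further upstream than GENCODE. The stretch of 30 bases around the RefSeq start of Slc22a12 (chr19:6543056-6543085, minus strand, GRCm38.p6) is given from 5′ to 3′. Capitals mark the bases transcribed according to RefSeq, and the whole stretch lies upstream of the gene as GENCODE places it.
Slc22a12 start: tcacactttaattctACCCAGAGTGACTTC
This stretch reads against the last exon of Nrxn2. In GENCODE, the exons of both genes share 682 bases (6542351 to 6543032), and the printed stretch is not among them. The shared bases are 30.1% of the 2263 exonic bases of Slc22a12, and 402 of them code for the Slc22a12 protein.

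Promoters are shown for 1 gene of the carnitine transporters and 2 of the ABC genes that were higher at an unadjusted p, of those whose RefSeq start had a window. The windows run from 250 bases before to 50 bases after the start on GRCm38.p6, and capitals mark GC boxes, the letters GGGCGG on either strand. They lie on the minus strand at chr11:53891654-53891953 for Slc22a5, at chr6:142702225-142702524 for Abcc9 and at chr11:110337667-110337966 for Abca5, each written 5′ to 3′.
Slc22a5: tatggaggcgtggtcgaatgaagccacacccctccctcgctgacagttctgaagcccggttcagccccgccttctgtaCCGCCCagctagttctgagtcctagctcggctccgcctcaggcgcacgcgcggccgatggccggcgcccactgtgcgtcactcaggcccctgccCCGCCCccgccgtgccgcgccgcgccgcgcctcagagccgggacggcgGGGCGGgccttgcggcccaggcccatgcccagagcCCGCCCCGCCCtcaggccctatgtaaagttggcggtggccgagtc
Abcc9: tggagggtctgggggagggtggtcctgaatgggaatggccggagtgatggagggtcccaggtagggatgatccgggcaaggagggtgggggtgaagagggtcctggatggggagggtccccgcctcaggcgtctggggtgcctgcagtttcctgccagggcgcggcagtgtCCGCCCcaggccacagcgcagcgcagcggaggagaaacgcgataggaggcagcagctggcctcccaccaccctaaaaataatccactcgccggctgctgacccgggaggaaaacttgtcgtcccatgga
Abca5: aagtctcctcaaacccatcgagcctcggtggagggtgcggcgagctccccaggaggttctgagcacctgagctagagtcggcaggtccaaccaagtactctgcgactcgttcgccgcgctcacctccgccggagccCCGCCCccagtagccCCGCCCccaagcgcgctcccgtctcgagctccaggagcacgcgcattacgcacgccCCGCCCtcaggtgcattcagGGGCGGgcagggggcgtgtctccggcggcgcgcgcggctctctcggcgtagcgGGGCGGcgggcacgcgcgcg
GC boxes were found 5 times in the window of Slc22a5, once in that of Abcc9 and 5 times in that of Abca5, and the G and C content was 72.7%, 65.7% and 72.3%. Over all 32851 windows, the median G and C content was 52.7%, and 35.7% of windows held a GC box. The window of Slc22a12, printed only in part, was below this median, with a G and C content of 50%. Windows were found for 43 of the 54 transporter genes, and 23 of their 50 windows (46%) held a GC box. The same windows were searched on both strands for 7 other motifs, of which none was found in the 3 windows shown. A TATA box (TATAAA) was in 13.6% and a CCAAT box (CCAAT) in 37.4% of all windows, and in 20% and 26% of the windows of transporter genes. For the hepatocyte factor HNF1, the half-site GTTAAT was in 7.10% of all windows and in 2 of the 50 windows of transporter genes (4%). For nuclear receptors, the half-site AGGTCA was in 16.3% of all windows and in 9 of the 50 windows of transporter genes (18%). The palindrome read by STAT5, TTCNNNGAA, was in 8.30% of all windows and in 7 of the 50. An E box (CACGTG) was in 7.15% and an AP-1 site (TGANTCA) in 7.81% of all windows, and in 10% and 2% of the windows of transporter genes. A match gives letters only and shows no binding.

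Slc22a12 encodes URAT1, known for urate reabsorption in the kidney tubule. In the liver libraries it was rare in control mice and rose in Nnmt KO mice. Nnmt KO libraries held 513, 512, 548 and 359 counts, and control libraries 32, 84, 142 and 89 counts, each in the order a to d. Normalised, these were 5.61, 6.34, 6.54 and 5.01 CPM against 0.386, 1.11, 1.64 and 1.06 CPM. The lowest Nnmt KO library thus held more than the highest control library, and the means were 5.88 ± 0.704 and 1.05 ± 0.513 CPM (SD, n = 4 each), a ratio of 5.61. The log2 fold change was 2.49 (SE 0.34), and the adjusted p was 0.0269 by edgeR and 1.76e-10 by DESeq2. The edgeR call was lost when Nnmt KO library b, c or d or control library b or d was left out (adjusted p = 0.0816, 0.105, 0.066, 0.0528 and 0.0587) or when no filter on low counts was used (adjusted p = 0.0668), while the log2 fold change stayed between 2.23 and 2.79. Per kb of exon, Slc22a12 stood at 0.463 CPM for control and 2.60 CPM for Nnmt KO mice, and over all libraries it ranked 11 of 16 in its family.

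The host gene Nrxn2 also passed an unadjusted p of 0.05, with a smaller increase in Nnmt KO mice. It was at 9.5, 8, 9.27 and 8.62 CPM in Nnmt KO and at 5.04, 4.71, 6.11 and 5.80 CPM in control libraries a to d, with a log2 fold change of 0.71 (SE 0.14, unadjusted p = 0.000334, adjusted p = 0.0711 in edgeR's test). The libraries of the genotypes did not overlap for Nrxn2 either. The counts of Slc22a12 were 0.581 to 0.793 times those of Nrxn2 in Nnmt KO libraries and 0.0766 to 0.268 times in control libraries. Whether the counting used strand is not stated, so reads of the shared bases cannot be assigned to either gene here. Among the 7 other tested genes within 200 kb, log2 fold changes ran from -0.25 to 0.96, and 3 had an unadjusted p under 0.05: Nrxn2, Gm14964 at 0.96 and the kinase gene Map4k2 at 0.39.

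Across the 8 libraries, the genes whose log2 CPM followed Slc22a12 most closely were Kcnk3, Mustn1, Zfp800, Thsd7a and Paqr8, with Pearson's r from 0.963 to 0.969. Among the transporter genes, Abca5 (r = 0.906), Abcc9 (r = 0.867) and Abcc12 (r = 0.86) were closest. These correlations describe 8 libraries of 2 genotypes that differ in Slc22a12, so a gene that differs between genotypes would correlate for that reason alone.

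Carnitine transporters of the Slc22a family differed most after Slc22a12. Slc22a5 encodes OCTN2, which brings carnitine into cells for the oxidation of fatty acids. It was at 78.5, 115, 142 and 133 CPM in Nnmt KO libraries a to d and at 51.5, 83.2, 69.9 and 35.9 CPM in control libraries a to d. Control library b exceeded Nnmt KO library a, and all other Nnmt KO libraries lay above all control libraries. The means were 117 ± 27.9 and 60.1 ± 20.7 CPM (SD, n = 4 each), with a log2 fold change of 0.96 (SE 0.25, unadjusted p = 0.00281, adjusted p = 0.127 in edgeR's test). The adjusted p was 0.00931 in DESeq2's test. Slc22a21, a neighbour on chromosome 11 that encodes the related carnitine transporter OCTN3, had low levels of 1.41, 2.03, 3.03 and 3.91 CPM in Nnmt KO and 1.33, 1.21, 1.24 and 0.69 CPM in control libraries. Its libraries did not overlap, although Nnmt KO library a was close to control library a, and its log2 fold change was 1.21 (SE 0.34, unadjusted p = 0.00429, adjusted p = 0.158 in edgeR's test). The third gene of this stretch, Slc22a4, which encodes OCTN1, was at 2.12 ± 0.468 CPM in Nnmt KO and 2.48 ± 0.493 CPM in control mice (log2 fold change -0.22, SE 0.23). Slc22a5 and Slc22a21 are close relatives, and how the counting placed reads that match both is not stated.

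Of the organic cation transporters, Slc22a3, named after its values were seen, encodes OCT3. It was at 13.9, 7.98, 16.6 and 19.1 CPM in Nnmt KO and 7.22, 6.63, 8.15 and 10.1 CPM in control libraries, and only Nnmt KO library b fell within the control range. The log2 fold change was 0.84 (SE 0.24, unadjusted p = 0.00501, adjusted p = 0.169 in edgeR's test and 0.0301 in DESeq2's). Slc22a3 shares 420 exonic bases (9.31%) with the end of Plg on the opposite strand, and Plg, the plasminogen gene, was at 1188 CPM in Nnmt KO and 1462 CPM in control mice (log2 fold change -0.30).

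**Figure D2:**
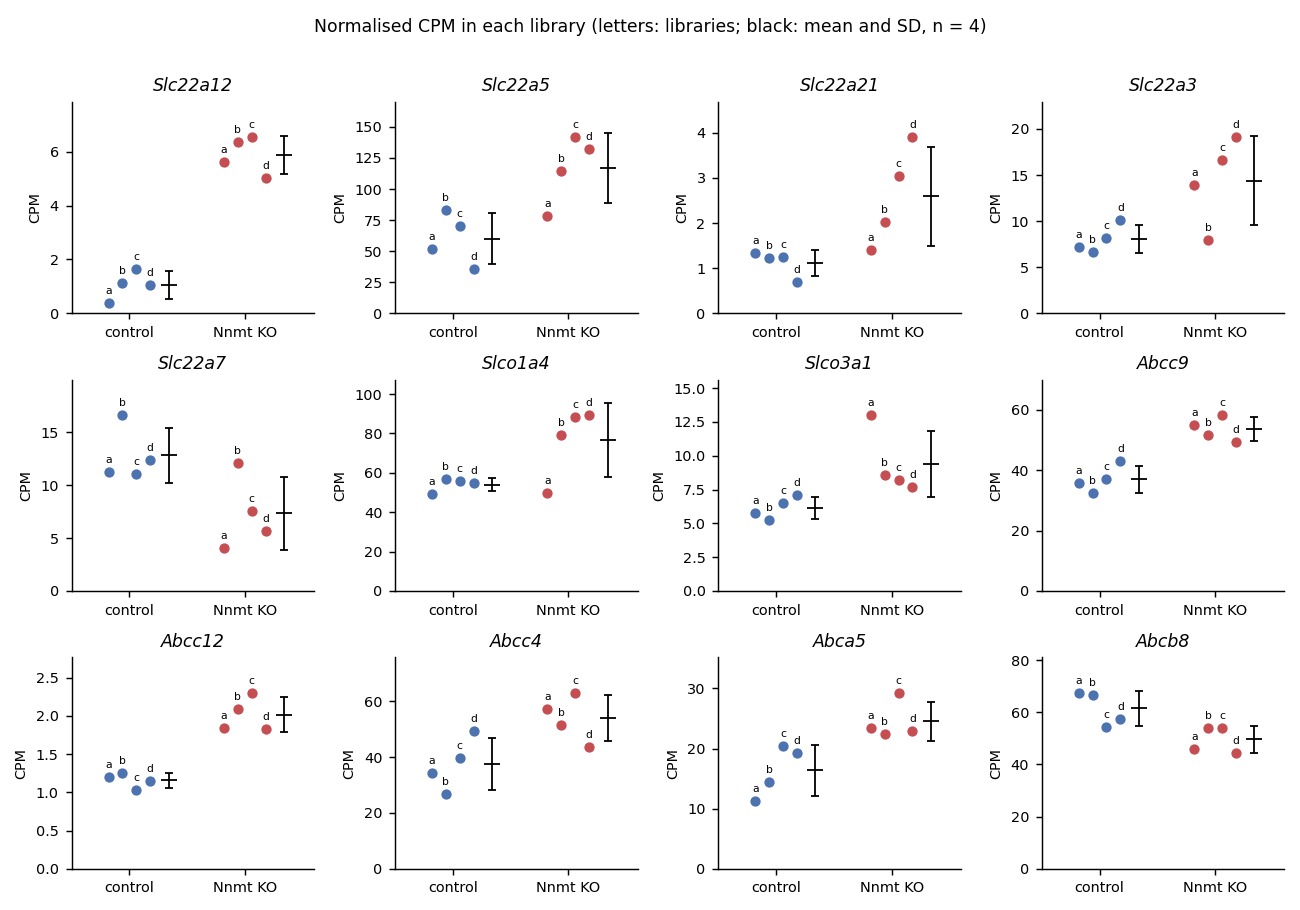
Normalised CPM (vertical axes from 0, 1 scale per gene) of 12 transporter genes in each control and Nnmt KO library, with the mean and SD of 4 libraries in black. The Nnmt KO libraries of Slc22a12 sit between 5.01 and 6.54 CPM, all above the control libraries, whereas those of Slc22a5, Slc22a3, Slc22a7, Slco1a4 and Abcc4 overlap with control.

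Among the organic anion transporters of the Slc22a family, 0 other than Slc22a12 were higher at an unadjusted p. Slc22a7, which encodes OAT2 of the hepatocyte membrane facing the blood, was lower at an unadjusted p. Its levels were 4.01, 12, 7.58 and 5.65 CPM in Nnmt KO libraries and 11.3, 16.6, 11 and 12.4 CPM in control libraries, so that only Nnmt KO library b reached the control range. The means were 7.32 ± 3.47 and 12.8 ± 2.62 CPM (SD, n = 4 each), with a log2 fold change of -0.81 (SE 0.29, unadjusted p = 0.0172, adjusted p = 0.271 in edgeR's test). The unadjusted p was 0.0504 without Nnmt KO library d and 0.0586 without control library b. The 5 anion transporter genes that neighbour each other on chromosome 19, Slc22a26 to Slc22a30, had log2 fold changes between -0.18 and 0.28 and unadjusted p-values of 0.235 or more. They are similar copies, and their counts are uncertain where reads match several of them.

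The other Slc22a genes are carriers whose substrates are less well known. Slc22a18 had a level of 58.2 CPM per kb of exon over all libraries and varied widely, from 36.2 to 112 CPM in Nnmt KO and from 57.7 to 164 CPM in control libraries (log2 fold change -0.47, SE 0.35). Slc22a23 was at 77.6 ± 9.03 CPM in Nnmt KO and 85.4 ± 10.3 CPM in control mice (log2 fold change -0.14, SE 0.12). Of the 16 Slc22a genes, 4 were higher and 1 was lower at an unadjusted p under 0.05. This share was 31.2%, where it was 13.8% for all tested genes with a mean of 0.5 CPM or more. The median log2 fold change of the Slc22a genes was 0.06. Their summed level was 901 ± 123 CPM in Nnmt KO and 932 ± 104 CPM in control mice (SD, n = 4 each), a difference smaller than either spread.

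The Slco genes included 2 that were higher at an unadjusted p. They made 33.3% of a family of only 6 genes. Among tested genes averaging 0.5 CPM or more, 13.8% had such a p in either direction. Slco1b2 encodes the main OATP of mouse hepatocytes, which takes up bile salts and bilirubin conjugates, and it was the most abundant Slco gene per kb, at 29.8 CPM. Its levels were 114, 139, 134 and 223 CPM in Nnmt KO and 125, 122, 171 and 147 CPM in control libraries a to d, with a log2 fold change of 0.11 (SE 0.20). Its neighbour Slco1a4, which encodes an OATP for bile salts and cardiac glycosides, was at 49.6, 79.3, 88.3 and 89.4 CPM in Nnmt KO and 49.1, 56.9, 55.7 and 54.6 CPM in control libraries a to d. Nnmt KO library a lay within the control range and the other 3 lay above it. The log2 fold change was 0.50 (SE 0.17, unadjusted p = 0.0121, adjusted p = 0.24 in edgeR's test), and without Nnmt KO library a it was 0.66 (adjusted p = 0.0195). Leaving out any other single library gave adjusted p-values of 0.279 to 0.549 in the same test. Without Nnmt KO library a, the number of all genes with an adjusted p under 0.05 also rose, from 49 to 149.

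Slco1a1, an OATP known as predominant in male mouse liver, was near the lower limit. It was at 0.503, 1.98, 0.502 and 1.02 CPM in Nnmt KO and at 0.712, 0.37, 1.96 and 0.761 CPM in control libraries a to d, and no order between the genotypes could be read (log2 fold change 0.07, SE 0.56). In the same libraries, 6 of 12 tested genes of a female-typical liver list were above control at an unadjusted p, against 5.45% of all tested genes. Of them, 4 had an adjusted p under 0.05 in edgeR's test. These included Cyp3a41a and Cyp3a41b, whose libraries stood in the same order, and how the counting placed reads that match both is not stated. The summed levels were 2073 to 4507 CPM in Nnmt KO and 1824 to 3273 CPM in control libraries, with Cyp2a4 (log2 fold change 0.02) as the largest part. Of 12 male-typical genes, 3 were higher and 2 lower at an unadjusted p, and 1 of the higher ones, Cyp4a12b, passed an adjusted p of 0.05 by edgeR (log2 fold change 1.24, adjusted p = 0.0496). Whether these patterns bear on the Slco1a genes was not tested.

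Slco3a1, which encodes a widely expressed OATP for prostaglandins and thyroid hormone, was at 13, 8.57, 8.20 and 7.70 CPM in Nnmt KO and at 5.77, 5.22, 6.50 and 7.10 CPM in control libraries a to d. The libraries did not overlap, and the log2 fold change was 0.61 (SE 0.19, unadjusted p = 0.00765, adjusted p = 0.2 in edgeR's test). Nnmt KO library a was the highest, and without it the log2 fold change was 0.41. Slco2b1, an OATP for steroid sulphates, and Slco2a1, the prostaglandin transporter, were at 86.6 ± 22.5 and 75.8 ± 11.4 CPM in Nnmt KO and at 105 ± 24.9 and 72.6 ± 14.4 CPM in control mice, with log2 fold changes of -0.28 and 0.06. The median over the 6 Slco genes was 0.09, and their summed level was 402 ± 80.3 CPM in Nnmt KO and 380 ± 12.7 CPM in control mice (SD, n = 4 each).

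**Figure D3:**
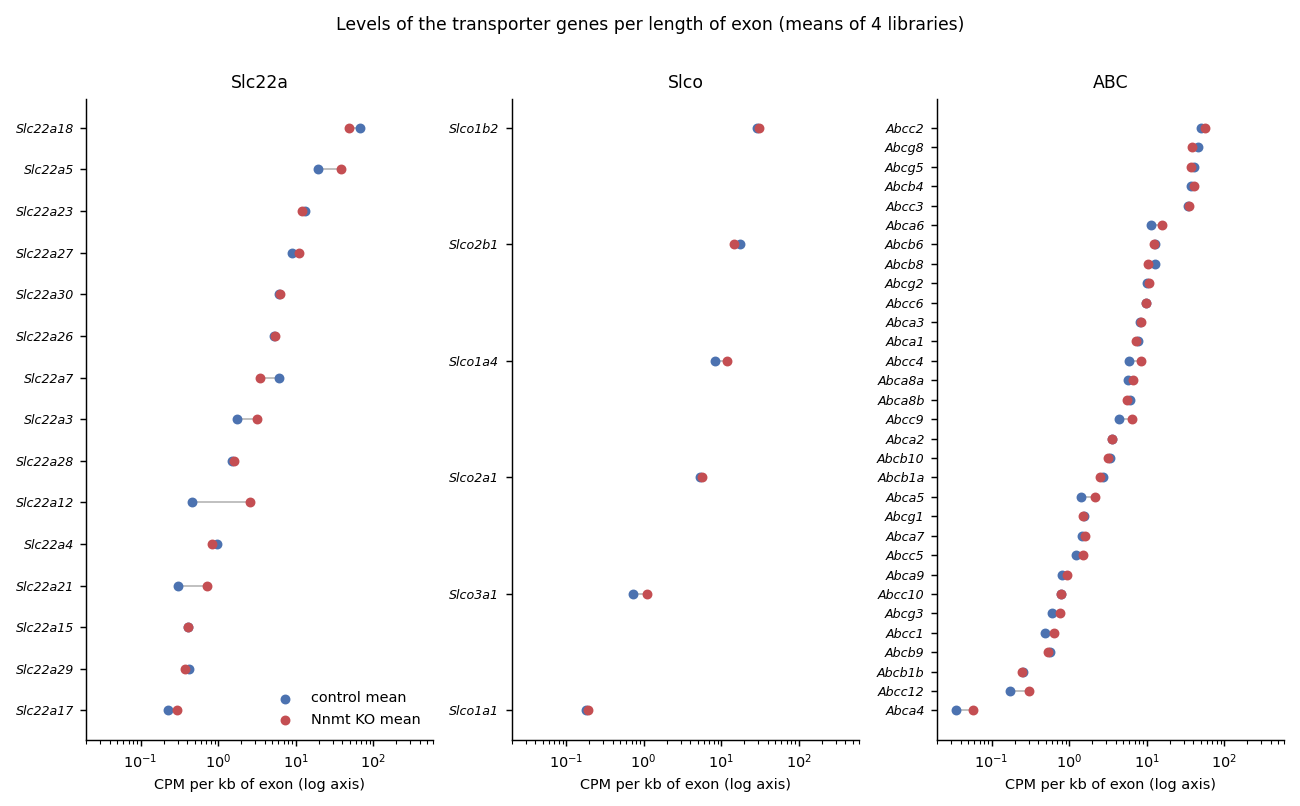
Mean CPM per kb of exon (horizontal log axis) of 52 of the transporter genes in control (blue) and Nnmt KO (red) mice, n = 4 each, with 1 panel per family. Slc22a12 shows the widest gap between the genotypes, from 0.463 to 2.60 CPM per kb.

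ABC exporters of the bile canaliculus included the 4 most abundant ABC genes per kb, and 0 of 6 had an unadjusted p under 0.05. Abcc2 encodes MRP2, which exports bilirubin glucuronides and glutathione conjugates, and it was at 486 ± 76.6 CPM in Nnmt KO and 431 ± 59.3 CPM in control mice (SD, n = 4 each; log2 fold change 0.17, SE 0.15). Abcb4, the phosphatidylcholine exporter MDR2, was at 381 ± 25.6 and 349 ± 15.7 CPM (log2 fold change 0.13, SE 0.11). Abcg5 and Abcg8, whose products pair to export sterols, were at 101 ± 27.7 and 143 ± 34 CPM in Nnmt KO and at 113 ± 46.3 and 175 ± 54.1 CPM in control mice, with log2 fold changes of -0.15 and -0.29. These paired genes lie head to head on chromosome 17 and share 82 exonic bases. The drug exporters Abcg2 (BCRP) and Abcb1a (P-glycoprotein) had log2 fold changes of 0.12 (SE 0.13) and -0.15 (SE 0.18). All 6 canalicular genes had adjusted p-values of 0.63 or more in edgeR's test.

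Of the 3 subfamily C exporters of the membrane facing the blood in the hepatocyte set or on chromosome 7, only Abcc4 had an unadjusted p under 0.05. Abcc4 encodes MRP4, which exports bile salts together with glutathione, and it was at 57.3, 51.4, 63.1 and 43.7 CPM in Nnmt KO and at 34.3, 26.8, 39.8 and 49.2 CPM in control libraries a to d. Control library d reached into the Nnmt KO range. The log2 fold change was 0.52 (SE 0.18, unadjusted p = 0.0137, adjusted p = 0.25 in edgeR's test). Abcc3, the gene of MRP3, was at 203 ± 32.1 and 196 ± 17.2 CPM (log2 fold change 0.06, SE 0.13), and Abcc6, whose product releases ATP from hepatocytes, at 55.5 ± 15 and 56.9 ± 10.6 CPM (log2 fold change -0.04, SE 0.20).

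Abcc9 and Abcc12 were the ABC genes with the smallest unadjusted p-values. Abcc9 encodes SUR2, the regulatory subunit of ATP-sensitive potassium channels, known from muscle and from perivascular cells. It was at 55, 51.6, 58.3 and 49.4 CPM in Nnmt KO and 35.8, 32.4, 36.9 and 43.1 CPM in control libraries a to d, without overlap. The log2 fold change was 0.53 (SE 0.11, unadjusted p = 0.000559, adjusted p = 0.0725 in edgeR's test and 0.00153 in DESeq2's). Of 8 hepatic stellate cell markers, 8 had a log2 fold change above 0 and 3 had an unadjusted p under 0.05, with summed levels of 457 to 827 CPM in Nnmt KO and 352 to 524 CPM in control libraries, and with Nnmt KO library a the highest. The part of these cells in the Abcc9 difference was not tested. Abcc12, the gene of the little-studied MRP9, was low, at 1.84, 2.09, 2.30 and 1.83 CPM in Nnmt KO and 1.21, 1.25, 1.03 and 1.15 CPM in control libraries a to d. Its libraries did not overlap, with a log2 fold change of 0.80 (SE 0.21, unadjusted p = 0.00301, adjusted p = 0.131 in edgeR's test and 0.00877 in DESeq2's).

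Lipid transporters of subfamily A split by gene. Abca1, which loads cholesterol onto apolipoprotein A-I, was at 77.9, 79.8, 72.1 and 71.1 CPM in Nnmt KO and 53.8, 73.1, 83.1 and 111 CPM in control libraries a to d (log2 fold change -0.09, SE 0.18). Its control libraries enclosed all Nnmt KO libraries. Abca5, a lysosomal lipid transporter, was at 23.4, 22.4, 29.3 and 22.9 CPM in Nnmt KO and 11.3, 14.4, 20.5 and 19.3 CPM in control libraries a to d. The libraries did not overlap, and the log2 fold change was 0.58 (SE 0.18, unadjusted p = 0.0083, adjusted p = 0.207 in edgeR's test). Its neighbour Abca6, chosen after its values were seen, had means of 86.1 ± 11.2 and 62.4 ± 10.3 CPM (SD, n = 4 each) and a log2 fold change of 0.46 (SE 0.14, unadjusted p = 0.00711). The remaining 3 genes of this stretch on chromosome 11, Abca9, Abca8a and Abca8b, had log2 fold changes of 0.23, 0.22 and -0.16, with unadjusted p-values of 0.133 or more.

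**Figure D4:**
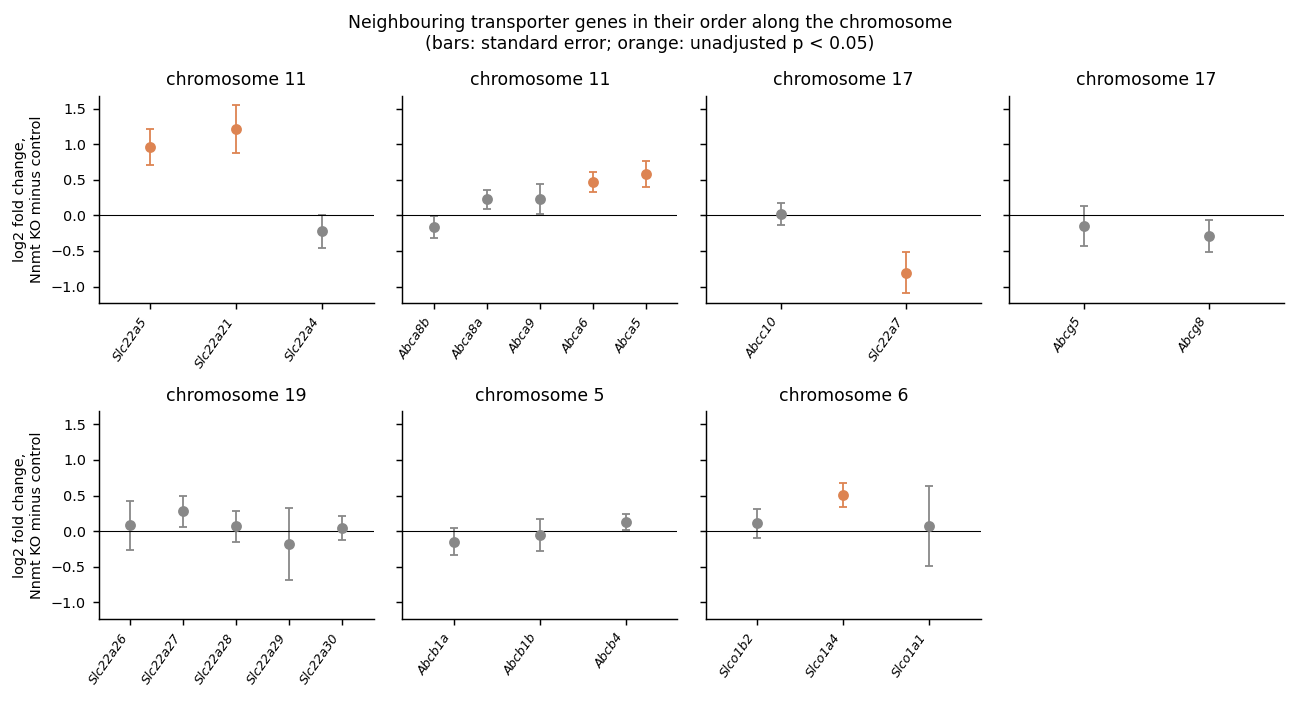
Log2 fold changes (vertical axis, Nnmt KO minus control) with standard errors for 23 transporter genes that lie within 250 kb of another one, in 7 stretches, in their order along the chromosome. Orange marks an unadjusted p under 0.05. Values of neighbours lay apart in several stretches, as with Slc22a5 at 0.96 and Slc22a4 at -0.22, or Abca5 at 0.58 and Abca8b at -0.16.

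Mitochondrial ABC transporters of subfamily B included the only ABC gene that was lower at an unadjusted p. Abcb8, a subunit of a mitochondrial potassium channel, was at 46.1, 54.1, 54.1 and 44.4 CPM in Nnmt KO and 67.6, 66.7, 54.4 and 57.4 CPM in control libraries a to d. The groups met closely at control library c, and the log2 fold change was -0.31 (SE 0.12, unadjusted p = 0.0214, adjusted p = 0.293 in edgeR's test). The unadjusted p was 0.0506 without Nnmt KO library a, 0.0577 without Nnmt KO library d, 0.0797 without control library a and 0.0702 without control library b. Abcb6 and Abcb10, which serve haem synthesis, had log2 fold changes of -0.07 each.

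Summed macrophage markers were highest in Nnmt KO library a and control library d, so the transporter genes were also read by library. The markers were not uniform. Cd68, Csf1r, Itgam and Lyz2 were highest in both libraries, with Lyz2 alone at 527 and 460 CPM. Clec4f and Marco were highest in neither, and Clec4f was lowest of the Nnmt KO libraries in library a, at 96.1 CPM. Vsig4 was highest in control library d but not in Nnmt KO library a. Abcc1, Abcc5 and Abcg1, chosen after their values were seen, were highest in Nnmt KO library a (16.6, 23.9 and 15.2 CPM) and in control library d (11.3, 19.8 and 16.9 CPM) of their genotypes. Nnmt KO library a and control library d were both the highest of their genotype for 7 of the 54 transporter genes (13%), against 13.4% of all tested genes, and both the lowest for 7 others, against 13.5%. These shares were near the background, and the part of macrophages was not tested. Leaving out Nnmt KO library a and control library d together was chosen after seeing the data. Without both libraries, 5 transporter genes had an adjusted p under 0.05 in edgeR's test, namely Slc22a12, Slc22a5, Slco1a4, Abcc9 and Abca6, where 0.837% of all genes did.

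**Figure D5:**
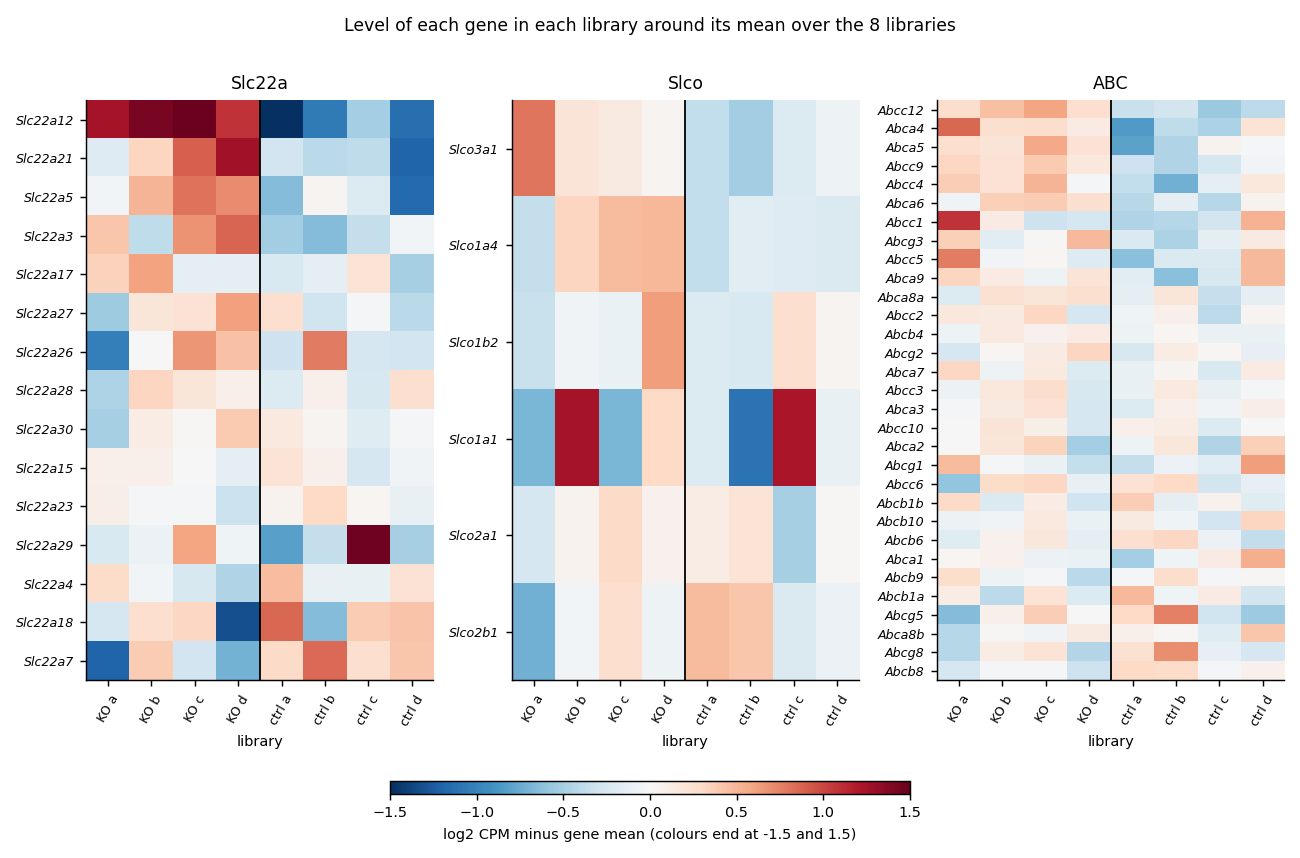
Log2 CPM of 52 of the transporter genes in each library minus the gene's mean over the 8 libraries, as colours that end at -1.5 and 1.5, with Nnmt KO libraries to the left of the line and genes ordered by log2 fold change. Slc22a12 is red in all 4 Nnmt KO libraries and blue in all 4 control libraries, while Abcc1, Abcc5 and Abcg1 are reddest in Nnmt KO library a and control library d.

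Over the 32 ABC genes, 6 were higher and 1 was lower at an unadjusted p under 0.05. Both directions together made 21.9% of the ABC genes, beside 13.8% of all tested genes with a mean of at least 0.5 CPM. The median log2 fold change of the ABC genes was 0.08, and the 25 others lay between -0.29 and 0.76. Their summed level, over all 32, was 2187 ± 213 CPM in Nnmt KO and 2069 ± 194 CPM in control mice (SD, n = 4 each). Of the 4 transporter genes on chromosome 7, Slco2b1 and Slc22a18 lie in stretches of 25 Mb with median log2 fold changes of -0.29 (136 genes) and -0.30 (242 genes), beside their own values of -0.28 and -0.47. Slco3a1 and Abcc6, at 0.61 and -0.04, lie in stretches with medians of 0.09 and -0.06.

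Other genes of hepatic transport were read from lists. Of 15 regulators of transporter genes, such as the receptors for bile acids, xenobiotics and oxysterols, 0 were higher and 2 were lower at an unadjusted p in edgeR's test. These were Nr0b2, the gene of the repressor SHP (log2 fold change -0.64, adjusted p = 0.188), and Nr1h2, the gene of LXRβ (log2 fold change -0.38, adjusted p = 0.282). A list of 17 tested hepatocyte transporter genes outside the 54 included Abcb11. Of these 17, 1 was higher, Slc10a5 at 0.46, and 1 was lower, the phosphate and urate carrier gene Slc17a3 at -0.36. Other carrier genes on that list linked to urate included Slc2a9 and Slc17a1, with log2 fold changes of 0.19 and 0.09 (adjusted p = 0.622 and 0.866). Of 6 scaffold genes that hold transporters at the membrane, Slc9a3r1 was lower, from 288 ± 54.2 CPM in control to 205 ± 20.8 CPM in Nnmt KO mice (log2 fold change -0.49, unadjusted p = 0.00738). Among 8 genes of the ABC subfamilies D, E and F, Abcd4 had a log2 fold change of 0.36 and Abcf3 of -0.28, both at an unadjusted p under 0.05. With edgeR, 0 of the genes on these lists had an adjusted p under 0.05.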

How the data were processed

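Liver RNA of 4 Nnmt KO and 4 control mice was measured by RNA-seq, with 1 library per labelled sample. Reads were aligned and quantified by the authors using HISAT2, and the submitters' processing notes also name StringTie and the build mm10. The deposited values are whole-number, unnormalised counts for each gene. The annotation, the use of strand and the treatment of reads matching several genes are not given in the sources used here, and each affects overlapping or similar genes. The paper and the labels name different library kits.

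Counts were normalised by TMM (factors 0.876 to 1.21) and tested with edgeR 4.0.16 in R 4.3.3 by the quasi-likelihood test, after filterByExpr with a minimum count of 10, which left 15291 genes. P-values were adjusted over these genes by the Benjamini-Hochberg method. DESeq2 1.42.0 was an alternative, as were its size factors, library size only, no filter, each library left out, and the removal of Nnmt KO library a together with control library d, which was chosen after seeing the data. For correlations, log2 CPM was computed with prior count 2. The scripts were tested on simulated data. Positions come from GENCODE M21 (GRCm38) by Ensembl identifier. Between libraries of a genotype, chi-square per degree of freedom was 40.2 or more, so none was a copy of another. Depths of 75020072 to 87934362 counts limit counting error only. The sources do not name a batch.

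The members and lists were chosen with earlier results of these data known. Named genes were Slc22a12, genes with an adjusted p under 0.05, genes with an unadjusted p under 0.05 whose libraries did not overlap, the 3 largest changes per family at such a p, the 4 most abundant per family per kb, a textbook hepatocyte set and the genes on chromosome 7. Other names were chosen after values were seen. Some genes under these rules are not reported here, and 2 are left out of the plots.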

Additional observations from a re-analysis of the deposited data

Results flagged for a closer look

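In 56 groups of 4 libraries, the gap of the highest or lowest library to its nearest neighbour was compared with the range of the group. The gap was too large by Dixon's criterion in 2 groups, where chance gives about 1 in 20 groups, or 2.8. Abca5, the lysosomal lipid transporter gene, was at 29.32 CPM in Nnmt KO library c and between 22.44 and 23.42 CPM in the other Nnmt KO libraries. Slco3a1, an OATP gene, was at 13.03 CPM in Nnmt KO library a and between 7.70 and 8.574 CPM in the others.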

How the results depend on the processing

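The number of transporter genes at an adjusted p under 0.05 was 1. Without the filter on low counts it was 0, and it was 6 by DESeq2's Wald test, 5 without Nnmt KO library a and control library d, and 0 to 2 with single libraries left out, of which the 2, Slc22a12 and Slco1a4, came without Nnmt KO library a. All genes at an adjusted p under 0.05 numbered 49, against 508 by DESeq2, 8 with no filter, 30 with DESeq2's size factors, 22 with library size only, 128 without both libraries and 6 to 149 with single libraries left out. The number of transporter genes whose libraries did not overlap was 7 (13%, against 8.16% of all tested genes). It was 11 with library size only (against 6.68% of all genes). With fewer libraries more of all genes did not overlap: it was 18 (33.3%) without both libraries, against 20.4%, and 7 to 13 with single libraries left out, among them 13 (24.1%) without Nnmt KO library a, against 13.5%, and 12 (22.2%) without control library d, against 14.3%. The number at an unadjusted p under 0.05 was 14 and ran from 11 to 17 in the alternatives. All genes at such a p numbered 1925, and from 1259 to 2214 in the alternatives. The log2 fold change of Slc22a12 was 2.49, and 2.50 with no filter, where its adjusted p was 0.0668. It ran from 2.23 to 2.79 with single libraries left out, with adjusted p-values up to 0.105. That of Nnmt was -1.28 in DESeq2's test, with an adjusted p of 0.00467, and from -1.52 to -0.94 with single libraries left out. No called difference changed direction in any alternative run. Log2 fold changes near 0 did change sign with single libraries left out, from -0.32 to 0.14 for Abcg5, from -0.50 to 0.70 for Slco1a1 and from -0.13 to 0.22 for Slco1b2. With a limit of 0.1 or 1 CPM, 57 or 51 genes would be described in place of 54. The cause of these changes was not tested. No paired analysis was possible because the count columns carry no mouse number. A level below 0.04 CPM rests on 3 counts or fewer in any library.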

Other observations

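Cell types other than hepatocytes gave these values beside the transporter genes. Of 8 lymphocyte markers, 8 had a log2 fold change above 0 and 2 passed edgeR's test at an unadjusted p of 0.05, with summed levels of 5.71 to 6.70 CPM in Nnmt KO and 3.41 to 4.20 CPM in control libraries. Of 8 cholangiocyte markers, 7 were above 0, and at an unadjusted p 2 were higher and 1 was lower, with sums of 109 to 307 CPM in Nnmt KO and 72.9 to 190 CPM in control libraries. Spp1 was the largest part of these sums in every library, at 71.4 to 243 CPM in Nnmt KO and 34.8 to 138 CPM in control libraries. Of 7 tested macrophage markers, 6 were above 0 and 0 had an unadjusted p under 0.05, and Adgre1 was at 0 counts in all libraries. Of 7 endothelial markers, 3 were above 0 and 1 was higher at an unadjusted p. Of 8 hepatocyte markers, 4 were above 0 and 0 had such a p. Their part in the transporter values was not tested.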
